A study of Homo sapiens with 16 samples.

Results

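The genes of the integrin alpha-v subunit and of its 5 beta partners were followed in A549 cells through 96 h of TGF-beta. They are ITGAV, ITGB1, ITGB3, ITGB5, ITGB6 and ITGB8, chosen by name, and took 7 of 57773 gene rows, because 2 rows carry the name ITGB3. A549 cells are a human lung cancer line of alveolar epithelial origin, and TGF-beta was used to drive their epithelial to mesenchymal transition, in which epithelial cells take on the shape and genes of mesenchymal ones. RNA was sequenced at 6, 12, 24, 36, 48, 72 and 96 h of TGF-beta and at 0 h, with 2 libraries per time, numbered replicate 1 and 2. All groups were the same cells and differed in the labels by time alone. No untreated culture accompanied the later times, so TGF-beta and time in culture cannot be told apart, and the line stands for a single tumour.

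Integrins are receptors made of an alpha and a beta subunit that bind the matrix outside the cell and link it to the actin cytoskeleton. TGF-beta is secreted inside a latent complex, and alpha-v integrins bind an RGD sequence in the latency-associated peptide of that complex. Pairing with ITGB6 or ITGB8 gives the receptors best known for activating latent TGF-beta, the pair with ITGB6 mostly in epithelium. Pairing with ITGB3 or ITGB5 gives receptors of vitronectin, and ITGB1 also pairs with many other alpha subunits.

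Ensembl identifiers of the files were matched to GENCODE 29 on GRCh38, since the build behind the files is not given in the sources used here. ITGAV (ENSG00000138448) lies on chromosome 2 from 186590065 to 186680901, plus strand. ITGB6 (ENSG00000115221) lies on the same chromosome from 160099666 to 160200313, minus strand. ITGB8 (ENSG00000105855) is on chromosome 7 from 20330702 to 20415754, plus strand, and ITGB1 (ENSG00000150093) on chromosome 10 from 32900319 to 33005792, minus strand. ITGB3 (ENSG00000259207) is on chromosome 17 from 47253846 to 47311816, plus strand, and ITGB5 (ENSG00000082781) on chromosome 3 from 124761948 to 124901418, minus strand.

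The promoters of ITGB6, ITGAV and ITGB5 are printed because levels of ITGB6 and ITGAV were higher, and those of ITGB5 lower, at 24 to 72 h. They come from RefSeq on GRCh38.p14, 5′ to 3′ on the strand of the gene, without bases in annotated exons. ITGAV has 2 starts and ITGB5 has 3 in that table, and the most upstream is shown. ITGB6 is at chr2:160200314-160200522, ITGAV at chr2:186589806-186590055 and ITGB5 at chr3:124901419-124901668.
ITGB6: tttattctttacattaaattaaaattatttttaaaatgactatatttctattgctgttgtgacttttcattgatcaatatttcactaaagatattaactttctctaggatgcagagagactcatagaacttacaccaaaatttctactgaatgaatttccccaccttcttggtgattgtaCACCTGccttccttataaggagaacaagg
ITGAV: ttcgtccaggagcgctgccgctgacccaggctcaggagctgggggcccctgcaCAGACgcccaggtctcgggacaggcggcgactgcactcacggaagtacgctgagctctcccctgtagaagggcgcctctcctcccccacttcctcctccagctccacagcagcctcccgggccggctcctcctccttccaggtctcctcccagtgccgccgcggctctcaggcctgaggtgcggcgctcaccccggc
ITGB5: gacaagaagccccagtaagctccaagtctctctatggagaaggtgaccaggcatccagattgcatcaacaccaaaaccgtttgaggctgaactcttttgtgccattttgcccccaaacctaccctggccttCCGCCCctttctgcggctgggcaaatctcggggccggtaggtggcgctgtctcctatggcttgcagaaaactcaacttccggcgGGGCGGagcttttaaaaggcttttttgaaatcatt

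Capitals mark matches, on either strand, to 4 motifs that were searched: CAGAC (a SMAD-binding element), TGANTCA (AP-1), CACCTG (an E-box of the kind bound by SNAI and ZEB factors) and GGGCGG (a GC box). These motifs share no letters of a match here. ITGB6 held 1 E-box, ITGAV 1 SMAD-binding element and ITGB5 2 GC boxes. In the 250 bases upstream of 35116 RefSeq starts, an E-box was found in 17.5%, a SMAD-binding element in 38.0%, a GC box in 42.6% and an AP-1 site in 6.57%. The GC content of those 250 bases was 30.0% for ITGB6, 70.8% for ITGAV and 52.8% for ITGB5. A match describes the letters alone and is not evidence of binding.

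Levels are TPM, which correct for gene length and are scaled to the same total in every library, so a level is relative to all other transcripts. TPM keep no read totals, and the depth is unknown. A set of 6 abundant small RNAs took 42.5 to 64.1% of a library, and 29278 to 31187 genes were listed at 0, except for 36116 and 36294 in replicate 2 of 36 and 48 h. Over the 16967 genes tested, the median log2 fold change from 0 h lay between -0.46 (48 h) and 0.03 (12 h), with -0.37 for 6 h. After scaling by the trimmed mean of M values (TMM) these medians lay between -0.03 and 0.09, and members are given under both scalings where the call or the sign differs. All 10 markers of the line passed the filter. They were the epithelial genes KRT7, KRT8, KRT18, KRT19, EPCAM and CDH1, and the enzymes AKR1B10, AKR1C2, NQO1 and ALDH1A1. By 96 h, 7 fell as deposited: CDH1, KRT8, KRT18, KRT19, AKR1C2, NQO1 and AKR1B10 (1.26% of all genes called lower). With TMM scaling and a replicate block 4 fell: CDH1, KRT19, AKR1C2 and AKR1B10 (3.16% of all genes called lower). Markers of other cell types stayed low: summed TPM were 1.69 to 7.56 over 10 fibroblast genes, 0.30 to 7.41 over 7 endothelial genes, 5.85 to 15.0 over 8 leukocyte genes and 0.67 to 6.60 over 7 platelet genes.

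ITGB1 was the most abundant transcript of the group in 16 of 16 libraries, and ITGB8 the least abundant in 15 of 16. ITGB5 exceeded ITGB6, and ITGB6 exceeded ITGB3, in 16 of 16 libraries. The order of ITGAV and ITGB5 turned: ITGAV was the higher in 12 of 12 libraries of 12 to 96 h, in 1 of 2 at 6 h and in 0 of 2 at 0 h. ITGB3 and ITGB8 could not be ordered at 0 h, where each was the higher in 1 library.

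**Figure D1:**
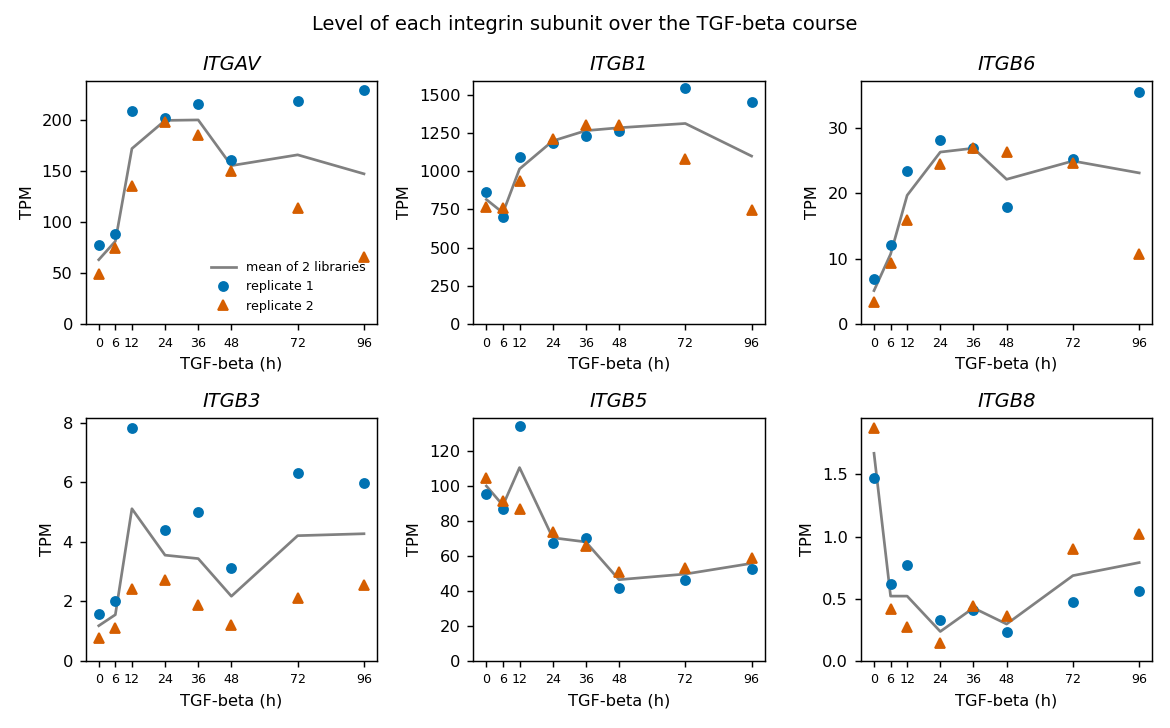
TPM of each gene (vertical axis, from 0, a separate scale per panel) against hours of TGF-beta (horizontal axis); circles are replicate 1, triangles replicate 2 and the line is the mean of the 2 libraries. ITGB6 and ITGAV lie above their 0 h values at 24 to 72 h and separate by replicate at 96 h, while ITGB5 and ITGB8 lie below theirs from 24 h on.

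Each time was compared with 0 h by limma over all genes, and a gene was called where its adjusted p was below 0.05. As deposited, the genes called higher were 0% of all genes for 6 h, 0.253% for 12 h, 0.613% for 24 h, 0.967% for 36 h, 0.796% for 48 h, 0.831% for 72 h and 0.536% for 96 h. Those called lower were 0.0177%, 0.13%, 0.595%, 1.33%, 6.8%, 1.74% and 1.26% in the same order of times. With the replicate number as a block, 0.0236%, 1.92%, 1.87%, 2.48%, 1.7%, 2.08% and 1.5% were called higher and 0.0472%, 0.684%, 1.92%, 3.15%, 14.9%, 4.22% and 3.31% lower. Against this background, the 6 members had 4 calls higher, all in ITGB6, and 3 lower, of which 2 in ITGB5 and 1 in ITGB8, of 42 tests (0.571% and 1.7% over all genes and times). Nothing is read from the ITGB8 call, since ITGB8 passed the filter mainly through its 0 h values. The block gave 14 and 5 (1.65% and 4.04%), TMM scaling 10 and 0 (1.66% and 0.978%), and both together 20 and 1 (4.24% and 2.89%). No member was called by limma for 6, 12 or 96 h as deposited. An unadjusted p under 0.05 was found for 2, 4 and 3 members, ITGB8 among them, beside 2307, 1407 and 2269 of all 16967 genes. The median change of the 6 members was 0.03 for 6 h, 0.81 for 24 h and 0.67 for 96 h, beside -0.37, -0.15 and -0.20 over all genes. All 7 comparisons share the 0 h libraries. How many of all genes had both libraries of a time above or below both of 0 h was not computed. With 2 libraries a side no exact permutation p can fall below 0.333, so such separation of a member is a description.

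ITGB6, the epithelial beta subunit known to pair with alpha-v alone, was higher in both libraries of every TGF-beta time than in both libraries of 0 h. With replicate 1 first, the 0 h pair read 6.83 and 3.39 TPM, the 6 h pair 12.04 and 9.34, the 12 h pair 23.46 and 15.93, and the 24 h pair 28.13 and 24.5. Later pairs read 26.94 and 26.87 TPM (36 h), 17.96 and 26.33 (48 h), 25.25 and 24.65 (72 h), and 35.58 and 10.67 (96 h). The climb was over by 24 h, with means of 22.1 to 26.9 TPM from then on. The 96 h pair held both the highest value of the course and the lowest after 6 h.

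ITGB6 averaged 26.3 ± 2.57 TPM at 24 h, against 5.11 ± 2.43 TPM at 0 h (SD, n = 2 each), a ratio of means of 5.15. Its log2 fold change of TPM + 1 had an SE of 0.44 and was called for 24 h (2.22, limma adjusted p = 0.0335), 36 h (2.25, 0.0203), 48 h (1.96, 0.0246) and 72 h (2.15, 0.0241). It was not called for 6 h (0.99, limma adjusted p = 0.364), 12 h (1.80, 0.117) or 96 h (1.82, 0.0612). The block added calls for 12 h (limma adjusted p = 0.0261) and 96 h (0.0158), as did TMM scaling (0.0309 and 0.00761). Under TMM and block together ITGB6 was called at 7 of 7 times, with 6 h at a limma adjusted p of 0.0220.

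These calls rest on few libraries. Leaving out 1 of the 4 libraries compared ended the 24 h call in 4 of 4 cases and the calls of 36, 48 and 72 h in 3 of 4, so that each of those 3 stood only without 0 h replicate 1. Without 0 h replicate 2, the change was 1.80 for 24 h (limma adjusted p = 0.477), 1.83 for 36 h (0.312), 1.54 for 48 h (0.245) and 1.73 for 72 h (0.320). For 96 h it was 2.64 without 96 h replicate 2 (limma adjusted p = 0.0041), which made it a call, and 0.99 without 96 h replicate 1 (0.197). Within a replicate number, ITGB6 at 96 h differed from 0 h by 2.22 in replicate 1 and 1.41 in replicate 2, and by 2.07 and 2.02 after TMM scaling. The TMM factors of the 96 h libraries were 1.27 and 0.752, and small RNAs took 50.6% and 62.1% of their TPM; the part of these in the 96 h levels was not tested.

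ITGAV, the alpha subunit shared by these receptors, was higher in both libraries of 12 to 72 h than in both libraries of 0 h, with no call as deposited without the block. The 0 h pair, replicate 1 first, read 77.43 and 48.83 TPM, the 6 h pair 87.97 and 74.58, the 12 h pair 209.02 and 135.55, and the 24 h pair 202.02 and 197.91. Later pairs read 215.66 and 185.19 TPM (36 h), 161.17 and 149.97 (48 h), 218.8 and 113.49 (72 h), and 229.6 and 65.38 (96 h). Replicates lay close together from 24 to 48 h and apart at 72 and 96 h, where replicate 2 of 96 h fell inside the range of 0 h.

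ITGAV averaged 199.965 ± 2.91 TPM at 24 h, against 63.1 ± 20.2 TPM at 0 h (SD, n = 2 each), a log2 fold change of 1.68 with an SE of 0.48 (limma adjusted p = 0.129). The change was 0.39 for 6 h, 1.44 for 12 h, 1.68 for 36 h, 1.32 for 48 h, 1.34 for 72 h and 0.98 for 96 h, with limma adjusted p between 0.0951 and 0.648. Under the block ITGAV was called for 12, 24, 36, 48 and 72 h, at limma adjusted p of 0.0424, 0.0143, 0.0106, 0.0236 and 0.0332. TMM scaling called it for 24, 36 and 48 h, at limma adjusted p of 0.0249, 0.0220 and 0.0172. Block and TMM together called ITGAV at 6 of 7 times, with 96 h among them (1.27, limma adjusted p = 0.0255) and 6 h not (0.111). For 96 h it differed from its own 0 h library by 1.56 in replicate 1 and 0.41 in replicate 2, and by 1.42 and 1.12 after TMM scaling. Without 96 h replicate 2 the 96 h change was 1.88 and called (limma adjusted p = 0.0267), and without 96 h replicate 1 it was 0.09 (0.901).

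ITGB8, whose pairing with alpha-v activates latent TGF-beta in epithelium, brain and immune cells, was near the lower limit of measurement. Its 0 h pair, replicate 1 first, read 1.47 and 1.87 TPM, the 6 h pair 0.62 and 0.42, the 12 h pair 0.77 and 0.27, and the 24 h pair 0.33 and 0.14. Later pairs read 0.41 and 0.44 TPM (36 h), 0.23 and 0.36 (48 h), 0.47 and 0.90 (72 h), and 0.56 and 1.02 (96 h). Every library with TGF-beta lay below both libraries of 0 h. ITGB8 passed the filter of 1 TPM in 2 libraries through the 0 h pair and 96 h replicate 2, so lower values at the other times were built into its selection.

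The ratio of ITGB8 means against 0 h was 0.141 for 24 h and 0.473 for 96 h. On the log2(TPM + 1) scale, which understates changes of low genes, the difference was -1.11 for 24 h, -1.04 for 48 h and -0.58 for 96 h (SE 0.26), and -0.98, -0.80 and -0.37 after TMM scaling. Because of the filter these values are a description, with no test.

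ITGB3, the beta subunit of a vitronectin receptor of platelets, endothelium and osteoclasts, was present at a few TPM. Its 0 h pair, replicate 1 first, read 1.58 and 0.77 TPM, the 6 h pair 2 and 1.09, the 12 h pair 7.81 and 2.4, and the 24 h pair 4.38 and 2.71. Later pairs read 5 and 1.86 TPM (36 h), 3.12 and 1.21 (48 h), 6.3 and 2.1 (72 h), and 5.98 and 2.55 (96 h). Replicate 1 was the higher at all 8 times, and each replicate exceeded its own 0 h library at 7 of 7 later times. The change was 1.36 for 12 h, 1.15 for 72 h and 1.22 for 96 h, with an SE of 0.57 and limma adjusted p of 0.515, 0.361 and 0.387. Under the block these 3 were called, at limma adjusted p of 0.0213, 0.0262 and 0.0235. Block and TMM together called ITGB3 at 6 of 7 times, adding 24, 36 and 48 h (limma adjusted p = 0.0113, 0.0198 and 0.0305), and TMM scaling without the block at 0 of 7.

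A second row named ITGB3 (ENSG00000259753) did not pass the filter: it was listed at 0 in 7 libraries and reached 0.35 TPM. GENCODE 29 names that identifier AC068234.1 and places it on chromosome 17 from 47253897 to 47344292, overlapping ITGB3, so reads of the overlap could be split between the rows. Of 7 platelet and megakaryocyte markers, GP9 was at 0 in all 16 libraries and GP1BA reached 2.18 TPM. The sum of the 7 was 1.13 to 1.62 TPM at 96 h and 2.19 to 2.55 TPM at 0 h. It was highest at 36 h, at 1.63 to 6.60 TPM, where the upper value exceeded what GP1BA alone reached. The sum of 7 endothelial markers was 4.68 to 6.56 TPM at 24 h and 0.82 to 0.84 TPM at 0 h, nearly all of it ESAM, with VWF never above 0.05 TPM. The part of such cells in the level of ITGB3 was not tested, and in bulk RNA fewer cells of a type and less RNA per cell cannot be told apart.

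ITGB5, a vitronectin receptor subunit of epithelial and stromal cells, was lower in both libraries of every TGF-beta time except 12 h than in both libraries of 0 h. Its 0 h pair, replicate 1 first, read 95.26 and 104.81 TPM, the 6 h pair 86.68 and 91.26, the 12 h pair 134.51 and 86.67, and the 24 h pair 67.21 and 73.61. Later pairs read 70.47 and 65.56 TPM (36 h), 41.91 and 50.9 (48 h), 45.93 and 53.31 (72 h), and 52.77 and 58.71 (96 h). As deposited, its levels from 48 h on lay below all earlier ones, and only the 12 h pair had replicates on either side of 0 h. After TMM scaling the order did not hold: 96 h replicate 2 stood at 78.1 and 24 h replicate 1 at 58.4.

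ITGB5 averaged 46.4 ± 6.36 TPM at 48 h, against 100.035 ± 6.75 TPM at 0 h (SD, n = 2 each). On the log2 scale it fell by 1.10 for 48 h (SE 0.23, limma adjusted p = 0.0182) and by 0.999 for 72 h (0.0364). The value was -0.50 for 24 h, -0.55 for 36 h and -0.83 for 96 h, the last called under the block (limma adjusted p = 0.0486) but not under block and TMM together (-0.54, 0.266). With TMM scaling the 48 and 72 h calls ended, at -0.49 and -0.79 (limma adjusted p = 0.353 and 0.152), and the 6 h value, -0.17 as deposited, was 0.45. The 72 h call also ended without any single library of 0 or 72 h (limma adjusted p 0.0785 to 0.349), and the 48 h call stood only without 48 h replicate 2 (0.0319).

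Among the 6 members, ITGB5 alone was called by the moderated F test over the 8 times (limma adjusted p = 0.0482, 1.72% of all genes called). An unadjusted p under 0.05 was found for 4 members, ITGB8 among them. How many of all genes had such a p by F was not computed, so nothing is read from that count. With TMM scaling ITGB6 alone was called (limma adjusted p = 0.0124, 3.16% of all genes). The block called ITGAV, ITGB3, ITGB5 and ITGB6 (6.13% of all genes), and block and TMM together ITGAV, ITGB3 and ITGB6 (10.9%). ITGB5-AS1, an antisense gene inside ITGB5 on chromosome 3 from 124781155 to 124787757, reached 0.58 TPM; whether counting used strand is not given in the sources used here.

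ITGB1, which also forms collagen, laminin and fibronectin receptors, had no call as deposited. Its 0 h pair, replicate 1 first, read 861.89 and 767.97 TPM, the 6 h pair 699.17 and 756.23, the 12 h pair 1094.61 and 935.45, and the 24 h pair 1184.03 and 1212.14. Later pairs read 1228.19 and 1302.85 TPM (36 h), 1265.65 and 1303.26 (48 h), 1547.85 and 1077.06 (72 h), and 1451.21 and 747.08 (96 h). Both libraries of 12 to 72 h exceeded both of 0 h, and the 96 h pair lay on either side. The log2 fold change ran between -0.16 for 6 h, which was 0.46 with TMM scaling, and 0.67 for 72 h (SE 0.27, limma adjusted p = 0.246). TMM scaling made 1 call, for 48 h (1.27, limma adjusted p = 0.0422), and the block none.

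**Figure D2:**
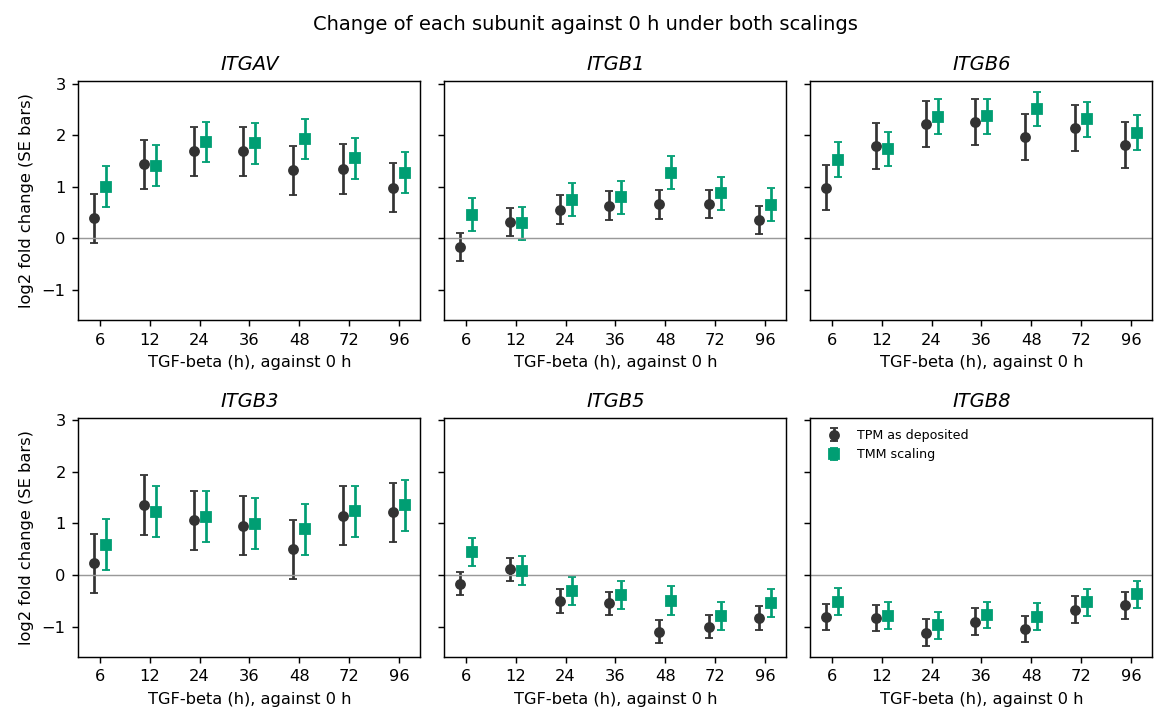
Log2 fold change of TPM + 1 against 0 h (vertical axis) at each time of TGF-beta (horizontal axis, hours); circles are TPM as deposited, squares TMM scaling, bars the SE from limma with 2 libraries per time. ITGB6 lies between 1.82 and 2.25 as deposited from 24 to 96 h, and the squares lie above the circles at 6 h and 48 h in each panel.

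The times of 72 and 96 h together were set against 24 and 36 h, a comparison that leaves the 0 h libraries out of the difference. No member was called by limma as deposited (0.0354% of all genes higher, 0.0648% lower). An unadjusted p under 0.05 was found for 1, ITGB5, beside 1125 of all 16967 genes. None was called under the block (0.0884% and 0.389% of all genes), TMM scaling (0.1% and 0.242%) or both (0.43% and 0.843%). The log2 difference was -0.25 for ITGB6 (SE 0.31), -0.52 for ITGAV (SE 0.34), 0.38 for ITGB8 (SE 0.18), 0.18 for ITGB3 (SE 0.41), -0.39 for ITGB5 (SE 0.16) and -0.09 for ITGB1 (SE 0.19). Replicates differed in sign for 3 genes: ITGAV differed by 0.10 in replicate 1 and -1.14 in replicate 2, ITGB6 by 0.12 and -0.62, and ITGB1 by 0.31 and -0.49. After TMM scaling these were 0.10 and -0.99, 0.11 and -0.48, and 0.31 and -0.33.

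The mix of beta subunits shifted with TGF-beta. A share is a ratio within a library and does not depend on how TPM are scaled. Of the summed TPM of ITGB3, ITGB5, ITGB6 and ITGB8, the ITGB6 share was 6.50% and 3.06% in the 0 h pair, 11.9% and 9.15% in the 6 h pair, 14.1% and 15.1% in the 12 h pair, and 28.1% and 24.3% in the 24 h pair. It was 26.2% and 28.4% (36 h), 28.4% and 33.4% (48 h), 32.4% and 30.4% (72 h), and 37.5% and 14.6% (96 h). Each of the 14 libraries with TGF-beta exceeded both of 0 h, and 96 h replicate 2 lay at the level of 12 h.

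Over the 14 libraries of 6 to 96 h the ITGB6 share averaged 23.9 ± 9.09%, and over the 2 of 0 h 4.78 ± 2.43% (SD). The difference was 19.1 percentage points (two-sided exact permutation p = 0.0167, the smallest that 120 arrangements can give, and 0.0333 adjusted over the 4 subunits). ITGB5 averaged 72.0 ± 10.2% with TGF-beta and 92.6 ± 2.80% at 0 h, lower in 14 of 14 libraries (exact permutation p = 0.0167, adjusted 0.0333). The 4 shares of a library add up to the whole, so the lower ITGB5 share and the higher ITGB6 share are not separate results. In 12 h replicate 1 the ITGB5 share was 80.8%, while ITGB5 stood at 134.51 TPM, above its level in both 0 h libraries. ITGB3 averaged 3.63 ± 2.003% and 1.10 ± 0.571%, above both 0 h libraries in 13 of 14 (exact permutation p = 0.0333, adjusted 0.0333). ITGB8 averaged 0.543 ± 0.334% and 1.54 ± 0.204%, below both in 13 of 14, with the same exact p. Nothing is read from the ITGB8 p, since ITGB8 was near the lower limit of measurement and its values are a description. Times were pooled here, and libraries of neighbouring times may not be independent.

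The sum of the 4 subunits was 105.14 and 110.84 TPM in the 0 h pair and 100.05 and 100.96 TPM in the 24 h pair, and 63.22 to 94.89 TPM over the 6 libraries of 48 to 96 h. The ITGB6 to ITGB5 ratio was 0.0717 and 0.0323 in the 0 h pair, 0.419 and 0.333 in the 24 h pair, and 0.674 and 0.182 in the 96 h pair, so ITGB5 stayed the more abundant. The ratio of ITGAV to the summed 4 subunits was 0.736 and 0.441 in the 0 h pair, 2.02 and 1.96 in the 24 h pair, and 2.42 and 0.896 in the 96 h pair. With ITGB1 in the sum, ITGB1 took 86.8 to 95.2% of every library, and ITGB6 averaged 1.75 ± 0.366% with TGF-beta (n = 14) and 0.546 ± 0.227% at 0 h (n = 2, exact permutation p = 0.0167, adjusted 0.0333). In that sum the differences of ITGB3 and ITGB5 were not called (adjusted exact permutation p = 0.117 and 0.0889). That of ITGB8 was (0.0333), from which again nothing is read.

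**Figure D3:**
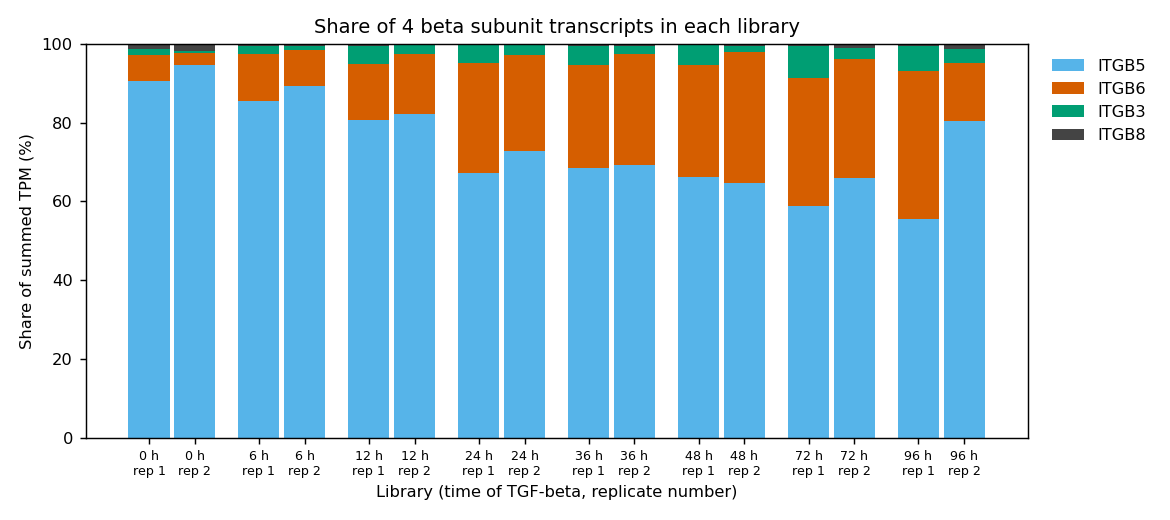
Share of each of 4 beta subunits in their summed TPM (vertical axis, percent) in each of the 16 libraries (horizontal axis, ordered by hours of TGF-beta and replicate number). The part of ITGB6 is 6.50% and 3.06% at 0 h and 28.1% and 24.3% at 24 h, and the replicates of 96 h differ, at 37.5% and 14.6%.

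Across the 16 libraries, which share a cell line and a time course, log2 levels of ITGAV and ITGB6 had a Pearson r of 0.92 (0.93 with TMM scaling), as a description. For ITGAV and ITGB1 r was 0.89 (0.82), for ITGB6 and ITGB1 0.82 (0.81), and for ITGAV and ITGB8 -0.70 (-0.85). Nothing is read from any r of ITGB8, since it passed the filter mainly through its 0 h values. The genes most like a member by r were sought among 10676 genes, or 10677 for ITGB8, that reached a mean of 5 TPM at some time. ITGB6 was most like RHOU, a small GTPase (r = 0.98), P4HA3, a collagen prolyl hydroxylase (0.97), and the transcript CTD-2066L21.3 (0.97). ITGAV was most like CTD-2066L21.3 (0.98), WNT5B, a Wnt ligand (0.97), and LPCAT2, an enzyme of phospholipid remodelling (0.97). ITGB3 was most like TGFB1 (0.96) and COL5A1, a fibrillar collagen chain (0.96).

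ITGB8 was most like PPL, a junction plaque protein (0.92), KHK, a fructose kinase (0.92), and the chemokine CXCL5 (0.91), with the limit of its filter given above. ITGB5 was most like SEC23B, a coat protein of secretory vesicles (0.96), STIP1, a co-chaperone (0.95), and MDH2, a mitochondrial malate dehydrogenase (0.95). ITGB1 was most like DSC2, a desmosomal cadherin (0.96), RALB, a small GTPase (0.95), and SERINC3, a membrane protein (0.94). With TMM scaling r was 0.88 for DSC2, 0.88 for RALB and 0.95 for SERINC3, so their order depends on the scaling.

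The substrate of these receptors is the latent TGF-beta complex, of which 9 genes were measured and 7 passed the filter. None was called by limma for 6, 24 or 96 h. At an unadjusted p under 0.05 were 0, 1 and 3, all higher, beside 2307, 1829 and 2269 of all genes in either direction. The block called 1 higher for 24 h and 3 for 96 h, and block and TMM together 5 and 4, where 4.67% of all genes were called higher and 2.1% lower for 24 h, and 3.97% and 3.16% for 96 h. The list median as deposited was 1.07 for 24 h and 0.95 for 96 h. TGFB1, a ligand whose latency peptide carries an RGD site, stood at 30.7 ± 18.9 TPM at 96 h, against 10.4 ± 2.06 TPM at 0 h (SD, n = 2 each), not called as deposited and called under the block (limma adjusted p = 0.0419) and under block and TMM together (0.00079). TGFB2, whose latency peptide lacks that site, averaged 43.9 ± 3.13 TPM at 0 h, 66.1 ± 10.8 TPM at 24 h and 32.0 ± 6.00 TPM at 96 h, and was called higher for 24 h under block and TMM together (limma adjusted p = 0.0332) and in no other fit for 24 or 96 h given here. TGFB3, the third ligand, stood at 0.855 ± 0.106 TPM at 96 h, against 1.26 ± 0.509 TPM at 0 h. LTBP1, which tethers the complex to the matrix, stood at 16.6 ± 6.91 TPM at 96 h, against 7.77 ± 0.870 TPM at 0 h, and was called under block and TMM together (limma adjusted p = 0.0030). Its relatives LTBP2 and LTBP3 were called for 96 h under the block (limma adjusted p = 0.00777 and 0.0460). LRRC32, which holds latent TGF-beta on the surface of regulatory T cells, did not pass the filter and never exceeded 0.27 TPM.

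Of 15 matrix ligands of alpha-v integrins past the filter, 2 rose by 24 h, and 3 rose and 1 fell by 96 h. THBS1, a matricellular protein, stood at 418 ± 154 TPM at 24 h, against 43.5 ± 21.7 TPM at 0 h (log2 fold change 3.28, limma adjusted p = 0.0366). TGFBI, a secreted RGD-containing protein, rose by 2.64 for 24 h (limma adjusted p = 0.00759) and by 2.02 for 96 h (0.0198), and FN1, fibronectin, by 3.43 for 96 h (0.0108). VTN, vitronectin itself, fell to 0.745 ± 0.375 TPM at 96 h, against 5.6 ± 2.05 TPM at 0 h (log2 fold change -1.90, limma adjusted p = 0.0105). The block called 4 higher for 24 h, with FN1 and CTGF added, and 3 higher and 3 lower for 96 h, with ADAM15 and ADAM9 added. Block and TMM together called 6 higher for 24 h (4.67% of all genes), and 5 higher and 1 lower for 96 h (3.97% and 3.16%). The list median as deposited was 0.56 for 24 h and 0.09 for 96 h.

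Of 24 genes that activate integrins or link them to actin, 0 were called by limma for 24 h. At an unadjusted p under 0.05, 5 were higher and 2 lower, beside 1829 of all genes in either direction. By 96 h, 1 was called lower. That gene was TNS3, a tensin that binds integrin tails, at 49.8 ± 8.24 TPM at 96 h, against 151 ± 31.6 TPM at 0 h (log2 fold change -1.57, limma adjusted p = 0.0237). Under the block 3 rose by 24 h, TNS1, RSU1 and FERMT2, of which FERMT2 is a kindlin that switches integrins on (limma adjusted p = 0.0380). Under block and TMM together 9 rose and 1, TNS3, fell by 24 h (4.67% and 2.1% of all genes). By 96 h, 3 rose and 2 fell (3.97% and 3.16% of all genes).

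Among 9 other alpha subunits past the filter, 0 were called by limma for 24 h. At an unadjusted p under 0.05, 4 were higher, beside 1829 of all genes in either direction. By 96 h, 1 was called higher. ITGA11, a collagen-binding partner of ITGB1, stood at 59.7 ± 48.8 TPM at 96 h, against 2.4 ± 2.38 TPM at 0 h (log2 fold change 4.08, limma adjusted p = 0.0214). The block called 3 higher for 24 h, ITGA2, ITGA5 and ITGA11, and 2 for 96 h (1.87% and 1.5% of all genes). Block and TMM together called 4 and 5 higher (4.67% and 3.97%). ITGA5, the fibronectin receptor subunit, stood at 24.3 ± 7.47 TPM at 24 h, against 7.79 ± 1.87 TPM at 0 h. Of the 3 other beta subunits, 0 were called by limma for 6, 24 or 96 h. Each time 1 was lower at an unadjusted p under 0.05, beside 2307, 1829 and 2269 of all genes in either direction. ITGB4, the hemidesmosome subunit, stood at 40.2 ± 5.43 TPM at 24 h, against 19.0 ± 0.537 TPM at 0 h, and was called higher for 24 h under block and TMM together (limma adjusted p = 0.0112).

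**Figure D4:**
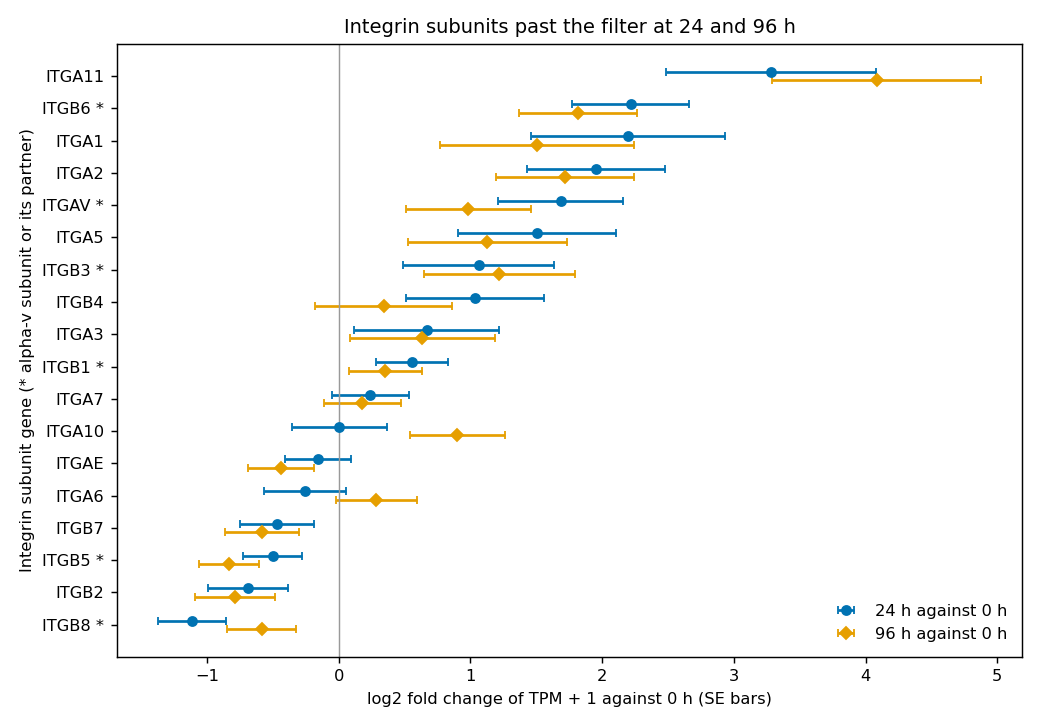
Log2 fold change of TPM + 1 against 0 h (horizontal axis) of the 18 integrin subunit genes past the filter (vertical axis, ordered by the 24 h value; a star marks ITGAV and its 5 partners); circles are 24 h, diamonds 96 h, bars the SE from limma. ITGB6 is the highest beta subunit at both times. ITGB8 is the lowest gene at 24 h, but it passed the filter mainly through its 0 h values, so nothing is read from its rank.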

How the data were processed

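Per the labels' protocols, A549 RNA was taken up in Trizol and made into Illumina TruSeq libraries. The authors deposited TPM, in 1 table per replicate number, and the submitters' processing notes name Bowtie and RSEM. No build, annotation or setting is given in the labels or headers. Columns were assigned to libraries by time and replicate number, and the tables were joined by Ensembl identifier.

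Of 57773 genes, the 16967 that reached 1 TPM in 2 of the 16 libraries were analysed as log2(TPM + 1). All times entered a single limma 3.58.1 fit in R 4.3.3 (a mean per time, mean trend, two-sided), with Benjamini-Hochberg adjustment over all genes and calls below 0.05. With 2 libraries a side, 0.333 is the lowest exact p possible for 1 gene. Shares were tested by exact permutation in SciPy 1.17.1. TMM factors were computed on TPM without weights. The code was tested on simulated data.

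Deviations of same-numbered libraries from their time means correlated above 0.1 in 28 of 28 pairs of times (lowest 0.128, and 27 of 28 with TMM scaling), so the numbers were taken to pair the samples; the labels do not state it, and the main fit has no block. The labels do not say that replicates were separate cultures: p-values reflect the spread among these samples, which may be technical.

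Members and gene lists were chosen with earlier results of these data known. Genes named beside the members were, per list, up to 3 called in each direction with the largest change, 7 set by name, and the 3 most like each member, of which 1 for ITGB3 is not reported here; genes named as called under the block were added after their values were seen.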

Additional observations from a re-analysis of the deposited data

How the results depend on the processing

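Calls of the 6 members over 7 times numbered 7 as deposited, 19 with the replicate block and 21 with block and TMM scaling together. They numbered 2 with no filter on low values, where more genes enter both the adjustment and the estimate of the spread. The part of each was not tested. Leaving out single libraries gave 0 to 16 calls, the lowest without 0 h replicate 2 and the highest without 96 h replicate 2. The F test called 1 member, 4 with the block, 3 with the block and TMM scaling, 0 with no filter, and 0 to 3 without single libraries. Alternatives chosen after seeing the data gave 2 calls, and 0 by F, without replicate 2 of 36 and 48 h, and 14 calls, and 3 by F, without 96 h. The comparison of 72 and 96 h with 24 and 36 h kept 0 calls under each alternative run. For 6 h, ITGB1 and ITGB5 changed sign to 0.46 and 0.45 with TMM scaling, with and without the block, and to 0.053 and 0.047 with the 6 small RNAs removed. Single libraries left out turned the sign of ITGB3 for 6 h (-0.043 to 0.50), ITGB5 for 12 h (-0.20 to 0.43) and ITGB1 for 96 h (-0.12 to 0.83). With ITGB1 in the sum, the share differences of ITGB3 and ITGB5, 0.151 and -4.74 percentage points, missed the threshold (adjusted exact permutation p = 0.117 and 0.0889). Without either 0 h library, where no exact p can fall below 0.133, the differences were 2.13 to 2.94 for ITGB3, -22.6 to -18.6 for ITGB5, 17.4 to 20.8 for ITGB6 and -1.14 to -0.855 for ITGB8. The replicate block ended none of the 4 share calls, and nothing is read from that of ITGB8. The share of all genes called was not computed for the fits with no filter or with libraries left out. Nothing is therefore read from how many members those fits called. Each count of calls also includes any call of ITGB8. Where no construction is named, the cause was not tested. The unknown depth limits ITGB3 and ITGB8 most.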
